A study of Mus musculus with 4 samples.

Results

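The report concerns 10 genes of the glutathione and thioredoxin systems, followed in single leukocytes of injured mouse muscle. They are *Slc7a11*, *Gclc*, *Gclm*, *Gss*, *Gsr*, *Txn1*, *Txnrd1*, *Srxn1*, *Prdx1* and *Nqo1*. They were taken as a list by gene symbol, and all 10 were found among the 27998 genes of each of the 4 matrices. The study injured the tibialis anterior muscle of male mice 8 to 12 weeks old with cardiotoxin, a toxin that destroys myofibres, and took CD45+ leukocytes with magnetic beads 2 or 4 days later (dpi2 and dpi4). Control libraries came from Bach1 fl/fl littermates, whose *Bach1* alleles carry loxP sites and which lack Cre. Libraries labelled KO came from Bach1 fl/fl mice that also carry Cre at the *Lyz2* locus (LysM-Cre), so that deletion is driven in myeloid cells by the *Lyz2* promoter. All mice were thus Bach1 fl/fl on a C57BL/6J background and all muscles were injured. Within a dpi the groups differed by Cre at the *Lyz2* locus and were separate libraries. Each of the 4 groups was 1 library, so replicate error is unknown for every difference below and no p-value is given. All intervals are 95% intervals that cover counting error only.

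*Bach1* encodes a repressor that sits at antioxidant response elements until haem or oxidants displace it, and NRF2 activates genes through the same elements. Glutathione is made from cysteine, glutamate and glycine. SLC7A11 imports cystine in exchange for glutamate, the ligase of the catalytic subunit GCLC and the modifier subunit GCLM joins glutamate to cysteine, GSS adds glycine, and GSR returns oxidised glutathione to its reduced form with NADPH. In the thioredoxin arm TXNRD1 reduces TXN1, TXN1 reduces peroxiredoxins such as PRDX1, and SRXN1 rescues overoxidised peroxiredoxins. NQO1 reduces quinones. Macrophages and neutrophils in damaged muscle take up dead tissue and haem and make oxidants themselves.

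The libraries held 4177 to 6602 barcodes and 57010520 to 80228489 UMIs, and 3433 to 5721 cells per library were kept, with median depths of 10736 to 15154 UMIs. Of the kept cells, 1 to 12 barcodes were shared by any pair of libraries. Cells were clustered with the 10 genes and the other pathway genes left out of the clustering, and 24 of 26 clusters were named from marker lists. For the libraries in the order control dpi2, KO dpi2, control dpi4, KO dpi4, there were 1878, 1059, 2955 and 2564 macrophages, 2671, 1016, 52 and 62 monocytes, 627, 815, 128 and 35 neutrophils, 314, 237, 399 and 446 dendritic cells, and 103, 37, 79 and 133 T or NK cells. In macrophages, *Lyz2*, whose locus carries Cre, was far lower in the libraries labelled KO, with log2 ratios of KO over control of -9.33 (dpi2) and -9.54 (dpi4). The groups thus differed in *Lyz2* as well as in the driven deletion. These cannot be told apart in the ratios below. The *Bach1* level did not follow the label, with 122 against 143 UMIs per 1e+06 UMIs of the class (called CPM) at dpi2 and 213 against 229 at dpi4. Tags from the 3′ end need not cover the exon between the loxP sites, so this count does not check the deletion. For this reason the groups are called by their label throughout. *Hmox1*, the haem oxygenase gene known as a BACH1 target, read 684 and 10474 CPM in macrophages of the control and KO libraries at dpi2, and 496 and 7457 CPM at dpi4.

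The genes lie on 6 chromosomes of GRCm38 in the GENCODE annotation, all under the identifiers the matrices use. *Gclm* (ENSMUSG00000028124) spans chr3:122245557-122270732 on the plus strand, and *Slc7a11* (ENSMUSG00000027737) spans chr3:49892526-50443614 on the minus strand. *Gclc* (ENSMUSG00000032350) is at chr9:77754535-77794485, *Gsr* (ENSMUSG00000031584) at chr8:33652523-33698163, *Txnrd1* (ENSMUSG00000020250) at chr10:82833951-82897712 and *Srxn1* (ENSMUSG00000032802) at chr2:152105516-152111376, all on the plus strand. *Prdx1* (ENSMUSG00000028691) is at chr4:116685544-116700822 on the plus strand and *Txn1* (ENSMUSG00000028367) at chr4:57943373-57956411 on the minus strand. *Gss* (ENSMUSG00000027610) at chr2:155563181-155592810 and *Nqo1* (ENSMUSG00000003849) at chr8:107388225-107403206 are also on the minus strand. A count here is 1 UMI per 3′ tag of 1 molecule, so levels of different genes are compared as tag counts without a length correction.

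Promoters of 300 bases (250 before and 50 after the start site, RefSeq, GRCm38.p6) were at hand for 8 of the 10 genes, with 3 for *Txnrd1*. The letters TGACNNNGC, the core of the antioxidant response element, were searched on both strands and stand in 12.4% of all 32851 promoters of that length. The letters TGANTCA, the core bound by AP-1 and shared by part of such elements, stand in 7.81%. The first core was found for *Gclm*, *Prdx1*, *Srxn1* and *Txnrd1*, the second for *Srxn1* and *Prdx1*, and neither for *Gss*, *Slc7a11*, *Txn1* and *Nqo1* within these windows. *Gclc* and *Gsr* had no entry. The stretches that hold the matches before the start site are shown because the elements named above are the sites BACH1 is known for. All are plus strand, 5′ to 3′, and hold 0 bases of annotated exons, the *Txnrd1* stretch lying within the span of its gene, and capitals mark the matched letters.
Gclm, chr3:122245383-122245471, GCNNNGTCA (the core read on the other strand) from 134 bases before the start: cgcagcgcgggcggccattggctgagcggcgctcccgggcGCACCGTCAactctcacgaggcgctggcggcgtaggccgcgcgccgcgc
Txnrd1, the second of its promoters, chr10:82859074-82859162, the same core from 92 bases before the start: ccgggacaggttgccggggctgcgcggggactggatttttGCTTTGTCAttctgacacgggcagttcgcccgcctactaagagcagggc
Srxn1, chr2:152105382-152105515, TGANTCA from 102 and from 45 bases before the start: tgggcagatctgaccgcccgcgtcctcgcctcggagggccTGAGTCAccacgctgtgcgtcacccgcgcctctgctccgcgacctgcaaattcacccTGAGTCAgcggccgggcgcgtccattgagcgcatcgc
Prdx1, chr4:116685349-116685514, TGANTCA from 237 bases before the start, and both cores overlapping from 133: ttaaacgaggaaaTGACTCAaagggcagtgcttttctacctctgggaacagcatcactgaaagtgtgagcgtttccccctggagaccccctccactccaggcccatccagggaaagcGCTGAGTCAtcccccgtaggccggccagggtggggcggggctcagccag
In *Srxn1* the TGACNNNGC core lies after the start site and is not shown. A match of letters is a description of the sequence and was not tested against binding or against the levels below.

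The levels of the 10 genes differed by cell type before any comparison of genotype. In 4 of the 5 classes *Prdx1* and *Txn1* held most of the UMIs of the 10 genes. In macrophages they held 87.8%, 77.7%, 84.7% and 77.3% in control dpi2, KO dpi2, control dpi4 and KO dpi4. In neutrophils the same pair held 32.8%, 25.0%, 29.2% and 25.6%, and *Slc7a11* and *Gsr* were high there. *Prdx1* was lowest in neutrophils among the 5 classes in all 4 libraries, at 157, 352, 282 and 373 CPM against 1432, 2103, 1227 and 1702 CPM in macrophages. In both KO libraries its interval in neutrophils overlapped that in T or NK cells.

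*Slc7a11*, the cystine importer, had the widest spread between classes. In the control libraries it ran from neutrophils (1274 CPM at dpi2 and 1157 CPM at dpi4) through monocytes (131 and 244), dendritic cells (61.0 and 78.9) and macrophages (21.4 and 55.6) down to T or NK cells (4.18 and 1.81), and no neighbours in this order had overlapping intervals. *Gsr*, which recycles glutathione, was likewise highest in neutrophils and next in monocytes in all 4 libraries, with 715 and 717 CPM in control neutrophils, 210 and 250 CPM in control monocytes and 27.6 and 32.4 CPM in control macrophages. *Gclm* was highest in macrophages in control dpi2, in monocytes in control dpi4 and in neutrophils in both KO libraries. At dpi4 the KO interval of neutrophils overlapped that of macrophages. *Gss*, the last enzyme of synthesis, stayed between 2.74 and 35.5 CPM, and no neighbouring classes were apart in any library. *Nqo1* had 0 to 50 UMIs per class and library, with at most 7.08 CPM in any of the 5 classes, and its order between classes is not detectable at this depth.

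**Figure D1:**
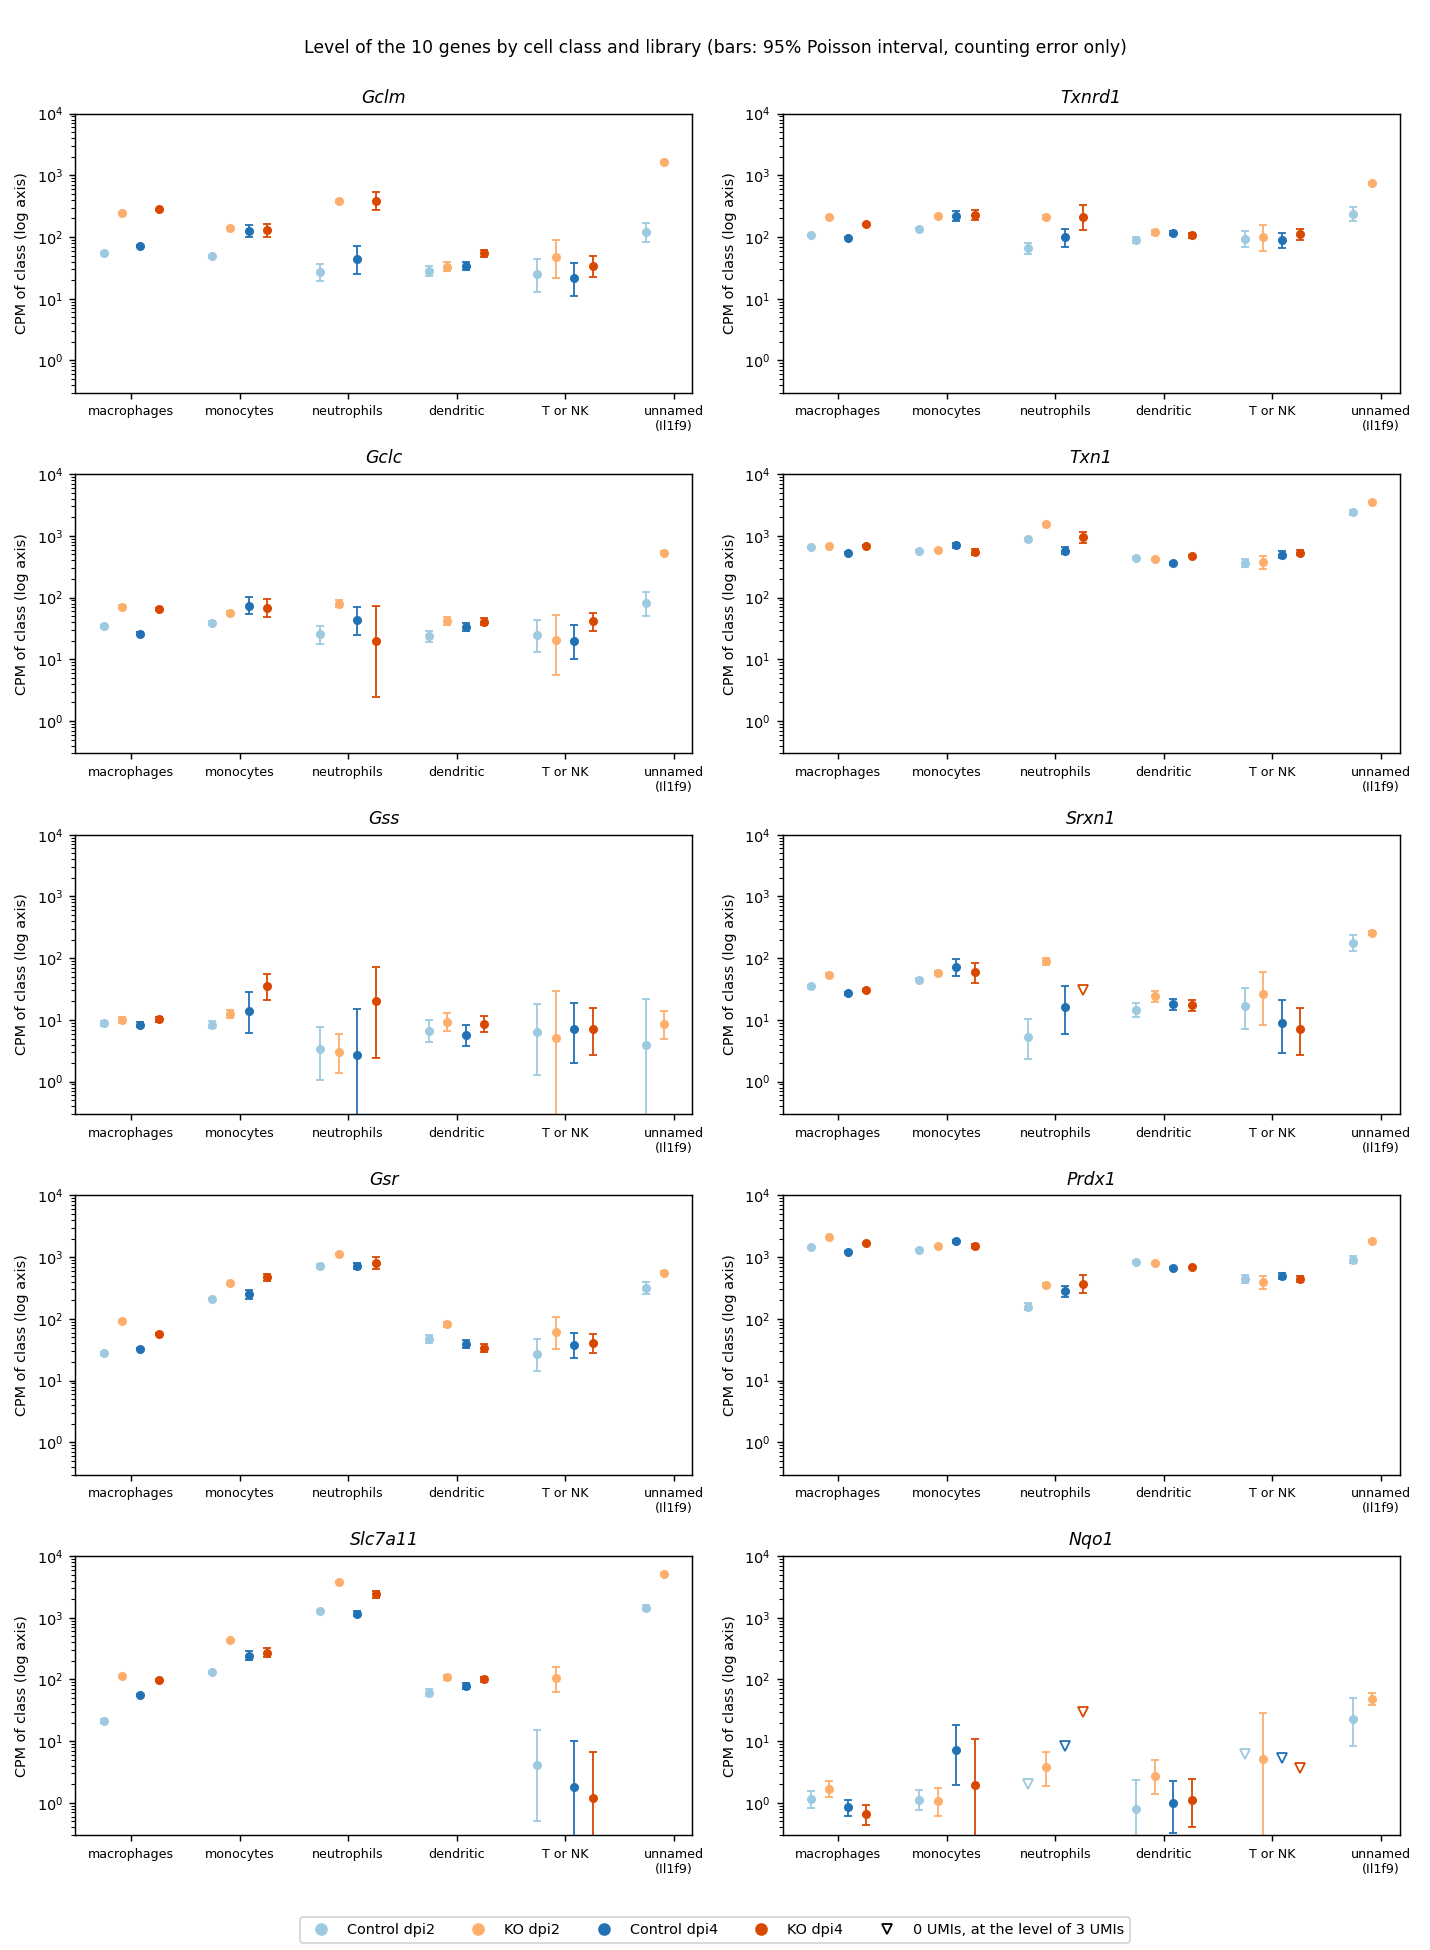
Levels of the 10 genes, in CPM of the summed class on a log axis, by cell class and library, where points are levels, bars are exact Poisson 95% intervals and open triangles mark 0 UMIs at the level of 3 UMIs. *Slc7a11* ran from 1274 CPM in neutrophils to 4.18 CPM in T or NK cells in control dpi2, while *Prdx1* was lowest in neutrophils in all 4 libraries.

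Each gene was then compared between the KO and the control library of a dpi within a class, as the log2 ratio of CPM with an exact conditional binomial interval. The rule for calling a gene higher or lower asked for a 2-fold ratio or more, an interval without 1 and 50 UMIs or more in the pair. In macrophages at dpi2, 4 of the 10 genes were called higher (*Slc7a11*, *Gclm*, *Gsr* and *Gclc*) and none lower, against 2.37% higher and 2.05% lower of all 11082 genes measured. At dpi4, 2 of 10 were called higher (*Gclm* and *Gclc*) and none lower, against 0.989% higher and 1.31% lower of 11937 genes. The median log2 ratio over the 10 genes was 0.77 at dpi2 and 0.60 at dpi4, beside -0.01 and 0.02 over all genes measured. All 10 ratios were over 1 at dpi2, and 9 of 10 at dpi4.

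In macrophages the modifier subunit *Gclm* read 54.8 CPM in control dpi2 (52.4 to 57.3), 249 in KO dpi2 (243 to 254), 70.6 in control dpi4 (68.4 to 72.9) and 279 in KO dpi4 (274 to 284). Both KO libraries stood above both controls, 4.54-fold at dpi2 (log2 ratio 2.18, 2.11 to 2.25) and 3.95-fold at dpi4 (1.98, 1.93 to 2.03). The catalytic subunit *Gclc* read 34.2, 71.4, 26.1 and 66.2 CPM in the same order of libraries. Its ratios were smaller than those of its partner, at log2 1.06 (0.96 to 1.17) and 1.34 (1.25 to 1.44). *Gss* read 8.77, 10.0, 8.35 and 10.2 CPM, and its log2 ratio was 0.19 (-0.04 to 0.43), then 0.29 (0.10 to 0.48). Of the synthesis enzymes, then, both subunits of the ligase were called higher and the enzyme that adds glycine was not.

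*Slc7a11* in macrophages read 21.4 CPM in control dpi2, 114 in KO dpi2, 55.6 in control dpi4 and 97.4 in KO dpi4. The log2 ratio was 2.42 (2.30 to 2.53) at dpi2, larger than that of the other 9 genes, and 0.81 (0.74 to 0.88) at dpi4, under 2-fold. The control level was higher at dpi4 than at dpi2, while the KO level was not. *Gsr* had the same form, with 27.6, 93.3, 32.4 and 56.1 CPM and a log2 ratio of 1.76 (1.65 to 1.86) at dpi2 that was 0.79 (0.70 to 0.88) at dpi4.

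None of the 4 thioredoxin genes reached 2-fold in macrophages. *Txnrd1* read 109, 209, 98.1 and 162 CPM, its log2 ratio being 0.93 (0.87 to 0.99), then 0.72 (0.67 to 0.77). *Prdx1*, the most abundant of the 10 genes in this class, had a log2 ratio of 0.55 (0.54 to 0.57), then 0.47 (0.46 to 0.49). *Srxn1* read 35.2, 53.9, 26.9 and 30.5 CPM, with 0.61 (0.51 to 0.72) and 0.18 (0.07 to 0.29). *Txn1* read 667, 686, 534 and 693 CPM, with 0.04 (0.01 to 0.07) and 0.38 (0.35 to 0.40), and its sign at dpi2 depended on the processing: it was -0.025 with the mean of per-cell CPM and -0.075 with cells assigned by their own marker score. *Nqo1*, with 42, 50, 46 and 30 UMIs, had intervals that held 1 at both dpi.

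**Figure D2:**
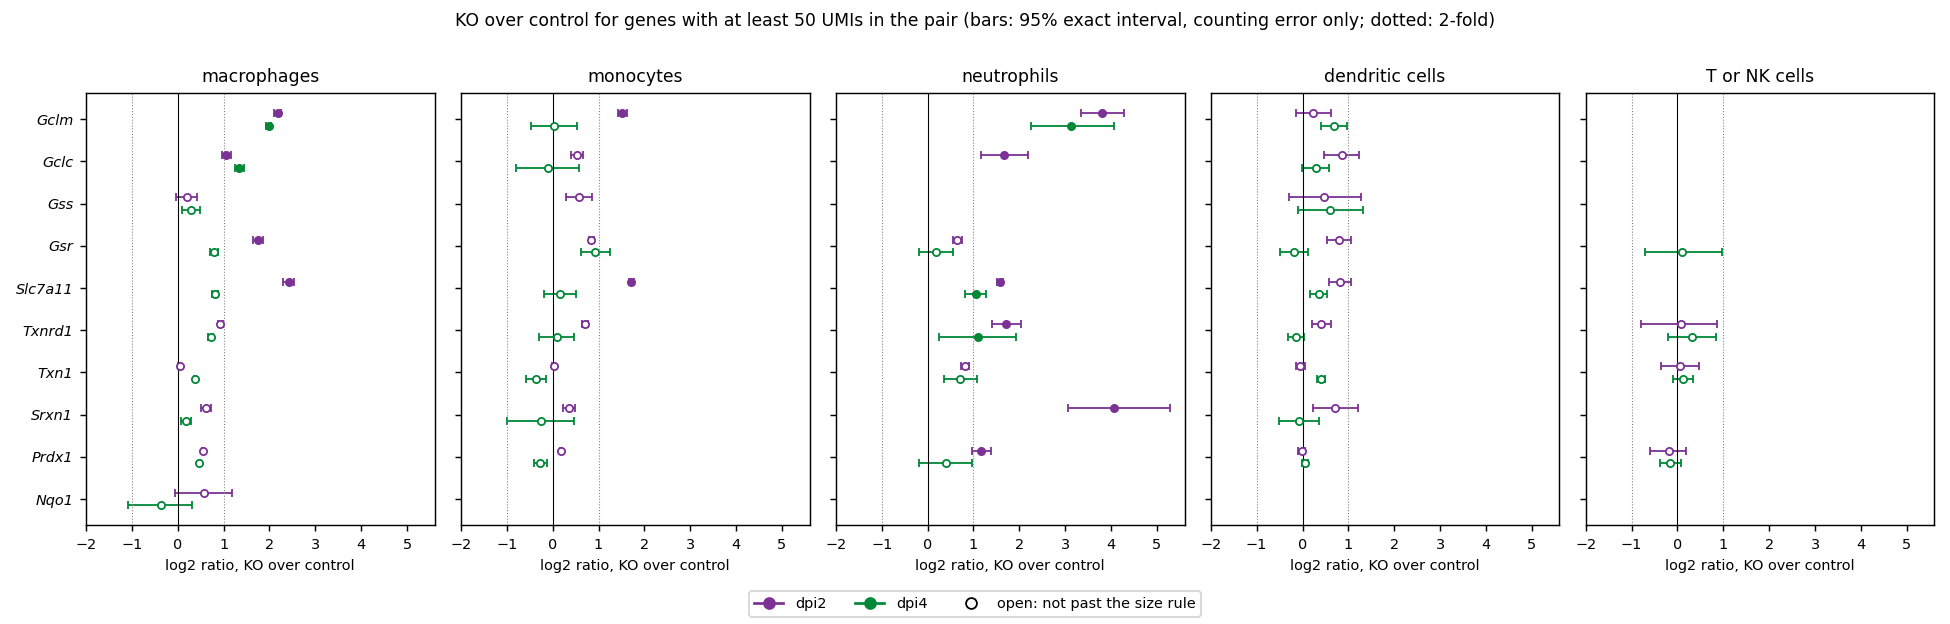
Log2 ratio of KO over control for each of the 10 genes in 5 cell classes at dpi2 and dpi4, with exact 95% intervals, where filled points passed the size rule, dotted lines mark 2-fold and genes under 50 UMIs in the pair are left out. *Gclm* was past 2-fold in macrophages and neutrophils at both dpi, and no point was filled on the lower side.

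Some clusters held different shares of the macrophages of the 2 genotypes at dpi4. A cluster led by *Cd83* and *Gdf15* held 34.7% of control and 12.1% of KO macrophages, and a cluster led by *Slc40a1* and *Vcam1* held 4.81% of control and 32.3% of KO macrophages. The ratios were therefore also taken within clusters that had at least 30 cells in both libraries. *Gclm* was 2-fold or more higher in KO in 4 of 4 macrophage clusters at dpi2 (log2 1.33 to 2.29) and in 8 of 8 at dpi4 (1.10 to 2.59). *Gsr* was so in 4 of 4 clusters at dpi2 (1.13 to 1.80) and in 1 of 8 at dpi4, where the other 7 ratios had intervals over 1 as well. *Gclc* was so in 2 of 4 and 6 of 8 clusters.

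Among macrophage clusters *Slc7a11* was 2-fold or more higher in KO in the 3 clusters with UMIs in both libraries at dpi2 (log2 2.19 to 4.49) and in 1 of 8 at dpi4 (0.09 to 1.34). In the cluster led by *Lyve1* and *Cd163* it read 5.82 CPM in control dpi2 and 62.5 in KO dpi2, and in the cycling cluster led by *Top2a* 7.28 and 164. In the *Slc40a1* and *Vcam1* cluster at dpi4 it read 141 and 150 CPM, a log2 ratio of 0.09 (-0.06 to 0.24). *Prdx1* had intervals over 1 in 7 of 8 clusters at dpi4 and under 1 in this last cluster (-0.21, -0.26 to -0.17). With this cluster left out, an alternative chosen after the data were seen, 2 of the 10 genes were called higher in macrophages at dpi4 (*Gclm* and *Gclc*), against 0.916% of 11686 genes.

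**Figure D3:**
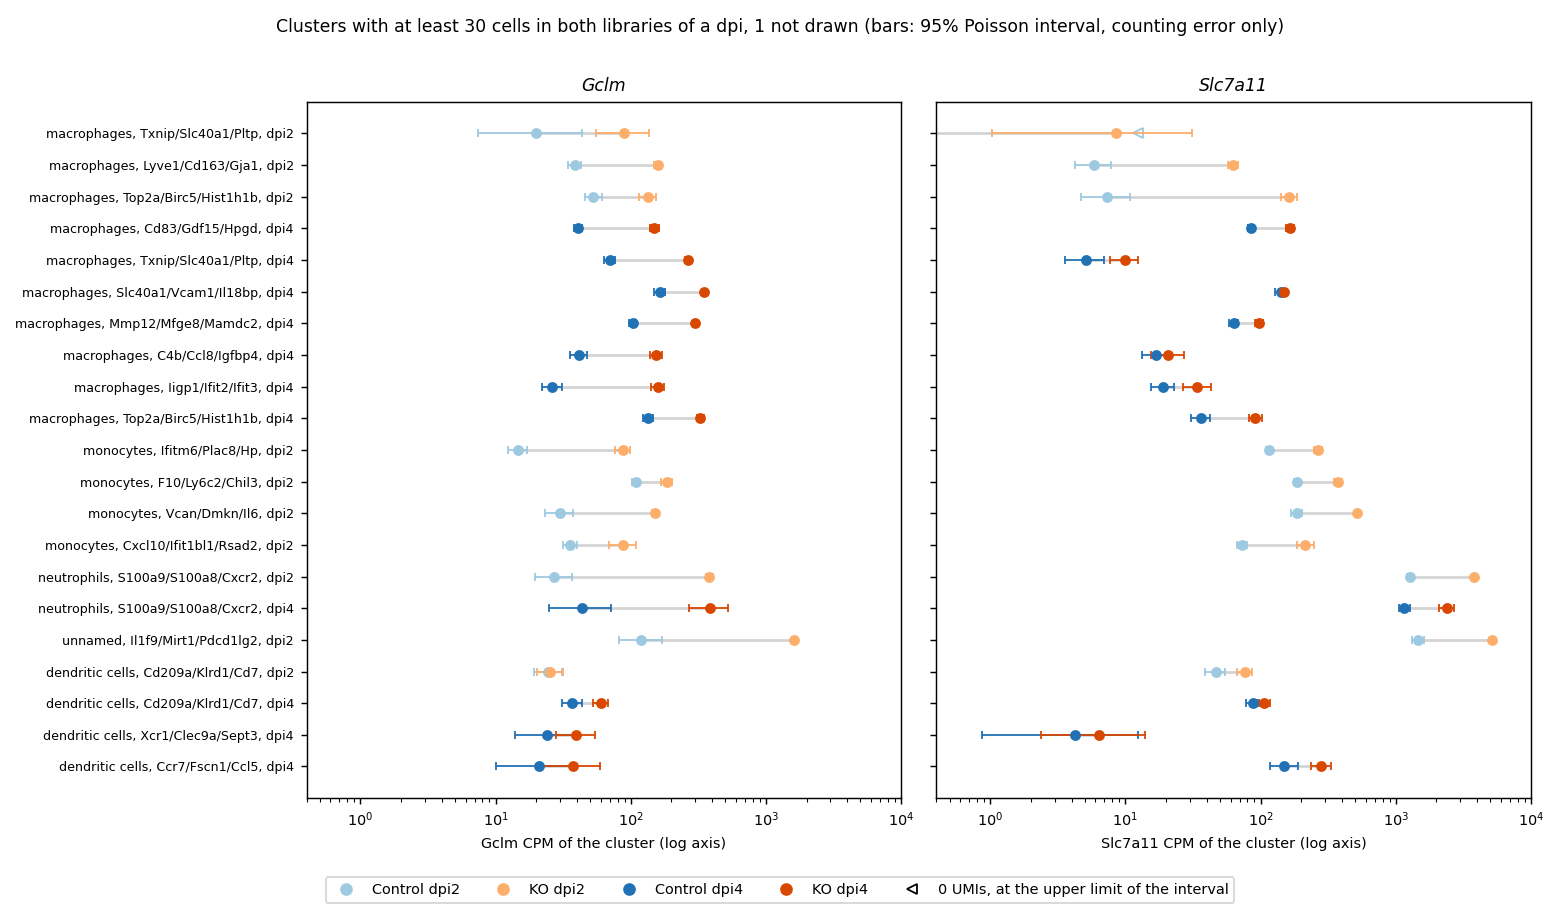
*Gclm* and *Slc7a11* levels in CPM (log axis) in clusters with at least 30 cells in both libraries of a dpi (1 macrophage cluster is not drawn), where points joined by a line are the control and KO library, bars are exact Poisson 95% intervals and an open triangle marks 0 UMIs. *Gclm* was higher in KO in all 7 macrophage clusters drawn at dpi4 (log2 1.10 to 2.59), while the *Slc7a11* points of the *Slc40a1* and *Vcam1* cluster lie together at 141 and 150 CPM.

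In monocytes at dpi2, 2 of 9 measured genes were called higher in KO (*Slc7a11* and *Gclm*) and none lower, against 1.76% higher and 2.77% lower of 10125 genes. *Slc7a11* read 131 CPM in the control and 432 in the KO library (log2 ratio 1.71, 1.66 to 1.77), and *Gclm* 49.0 and 141 (1.52, 1.42 to 1.62). *Gsr* read 210 and 376 CPM (0.84, 0.79 to 0.89), *Txnrd1* 137 and 223 (0.71, 0.64 to 0.77) and *Gclc* 38.8 and 56.3 (0.54, 0.40 to 0.67), all under 2-fold. *Txn1* differed by a log2 ratio of 0.02 (-0.02 to 0.06). Macrophage markers in these monocytes stood at 38.2% (control) and 36.8% (KO) of their level in macrophages. RNA of macrophages in that proportion would carry 20.9 of the 49.0 and 91.6 of the 141 CPM of *Gclm*. Its part in the call was not tested. A cluster led by *Vcan* and *Dmkn* held 8.31% of control and 58.4% of KO monocytes. Within clusters *Gclm* was at least 2-fold higher in 3 of 4 (0.76 to 2.59) and *Slc7a11* in 4 of 4 (1.02 to 1.57), and without the *Vcan* and *Dmkn* cluster, again an alternative added later, 2 genes were called higher against 1.21% of 9796 genes.

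At dpi4 there were 52 and 62 monocytes, and none of 8 measured genes was called higher or lower, against 1.59% higher and 2.42% lower of 3262 genes. *Gclm* read 126 and 128 CPM and *Slc7a11* 244 and 272 CPM. Both control levels lay above those of dpi2, while the KO level was higher at dpi2 for *Slc7a11*. *Gsr*, at 250 and 476 CPM, came closest to the rule (0.93, 0.62 to 1.24). *Prdx1* was under 1 here (-0.27, -0.40 to -0.13), as was *Txn1* (-0.36, -0.59 to -0.13). Macrophage markers in monocytes summed to 14276 CPM in control and 8870 in KO at dpi4, but to 5223 and 5597 CPM at dpi2, and their part in these ratios was not tested. In proportion to these markers, macrophage RNA would carry 24.0 of the 126 and 71.5 of the 128 CPM of *Gclm* at dpi4.

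In neutrophils at dpi2, 6 of 8 measured genes were called higher in KO (*Gclm*, *Gclc*, *Slc7a11*, *Txnrd1*, *Srxn1* and *Prdx1*) and none lower, against 2.60% higher and 6.27% lower of 5773 genes. Their median log2 ratio was 1.62, beside -0.29 over all genes. Scaling by TMM factors instead of total UMIs would move every neutrophil ratio at dpi2 up by 0.35, which gives 7 genes called higher in place of 6, against 4.99% higher and 2.75% lower of all genes. At dpi4, with 128 and 35 neutrophils, 3 of 6 measured genes were called higher (*Gclm*, *Slc7a11* and *Txnrd1*) and none lower, against 2.13% higher and 4.08% lower of 1594 genes, with a median of 0.88 beside -0.10. A minimum of 200 UMIs in the pair left 1 of these calls.

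*Gclm* in neutrophils read 27.3 CPM in control dpi2 (41 UMIs), 380 in KO dpi2 (1112 UMIs), 43.8 in control dpi4 (16 UMIs) and 383 in KO dpi4 (38 UMIs). The ratios were 13.9-fold at dpi2 (log2 3.80, 3.35 to 4.29) and 8.76-fold at dpi4 (3.13, 2.25 to 4.07), and the KO and control intervals lay far apart at both dpi. *Srxn1*, the sulfiredoxin gene, had 8 UMIs in control and 260 in KO neutrophils at dpi2 (5.32 and 88.9 CPM, log2 ratio 4.06, 3.06 to 5.29), but 6 and 0 UMIs at dpi4, where 0 UMIs allow up to 30.3 CPM. *Slc7a11* was the most abundant of the 10 genes in this class, with 1274, 3812, 1157 and 2390 CPM, and its log2 ratios were 1.58 (1.51 to 1.65) and 1.05 (0.81 to 1.28).

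The remaining measured genes in neutrophils followed the same direction at dpi2. *Txnrd1* read 65.1 and 213 CPM (log2 ratio 1.71, 1.40 to 2.03), *Gclc* 25.3 and 79.6 (1.66, 1.16 to 2.19) and *Prdx1* 157 and 352 (1.16, 0.96 to 1.37). *Txn1*, at 876 and 1543 CPM (0.82, 0.73 to 0.91), and *Gsr*, at 715 and 1118 CPM (0.64, 0.54 to 0.75), stayed under 2-fold. Summed, the 10 genes made 3149 CPM of control and 7593 CPM of KO neutrophils at dpi2, and 2938 and 5163 CPM at dpi4. *Nqo1* had 0 UMIs in the control and 11 in KO at dpi2, and *Gss* had 5 and 9, so neither had the 50 UMIs of the rule. Macrophage markers were not higher beside these ratios. Their summed level in neutrophils was 680 CPM in control and 593 in KO at dpi2 and 3291 and 2874 CPM at dpi4, with at most 1 of 13 markers at 0. RNA of macrophages in that proportion would carry 9.70 of the 380 CPM of *Gclm* in KO neutrophils at dpi2 and 23.2 of the 383 CPM at dpi4. The neutrophil markers themselves read 54599 CPM in control and 75229 in KO neutrophils at dpi2, with 9 of 9 detected.

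A cluster of 600 cells led by *Il1f9* and *Mirt1* was left unnamed. Neutrophil markers scored highest in it, but its cells were shallow for their libraries (median 3438.5 UMIs) and 0 of those markers were among its 10 leading genes. It held 89, 494, 5 and 12 cells and so lay mostly in the KO dpi2 library. At dpi2 its neutrophil markers summed to 8994 and 16878 CPM, below the neutrophil class, and its macrophage markers to 1994 and 1226 CPM. In this cluster 4 of 9 measured genes were called higher in KO at dpi2 (*Gclm*, *Gclc*, *Slc7a11* and *Txnrd1*) and none lower, against 4.93% higher and 9.62% lower of 3939 genes. *Gclm* read 120 and 1622 CPM (log2 ratio 3.76, 3.25 to 4.32), levels above those of the 5 named classes at dpi2, and *Gclc* 81.2 and 535 (2.72, 2.10 to 3.42). *Slc7a11* read 1457 and 5197 CPM (1.83, 1.69 to 1.99), and *Txnrd1* 236 and 741 (1.65, 1.28 to 2.05). *Nqo1*, near 0 elsewhere, had 6 and 90 UMIs here (23.2 and 48.7 CPM, 1.07, -0.11 to 2.55). At dpi4, with 5 control and 12 KO cells, *Slc7a11* was called lower in KO (3576 and 1182 CPM on 50 and 42 UMIs, -1.60, -2.22 to -0.98) and *Prdx1* higher (7 and 52 UMIs, 1.55, 0.40 to 2.93), 2 of 3 measured genes, where 21.0% of 138 genes were called higher and 13.0% lower. Neutrophil markers there summed to 17234 CPM in control and 1125 in KO, with 3 and 1 of 9 at 0, so they and *Slc7a11* were both lower in KO, and their part in it was not tested. With this cluster added to the neutrophils, an alternative added later, 8 of 9 genes were called higher at dpi2, against 3.83% of 6716 genes. At dpi4 it gave 3 of 6 (*Gclm*, *Txnrd1* and *Prdx1*, without *Slc7a11*), against 4.12% of 1749.

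Dendritic cells and T or NK cells gave no call between genotypes. In dendritic cells none of 9 measured genes passed the rule at either dpi, where 1.47% of 8043 and 0.673% of 8916 genes were called higher. The shares called lower were 1.43% and 0.606%. *Gclm* read 28.1, 33.2, 33.7 and 54.3 CPM, and its log2 ratios were 0.24 (-0.14 to 0.62) and 0.69 (0.41 to 0.97). *Slc7a11* read 61.0, 108, 78.9 and 100 CPM (0.82, 0.59 to 1.06, and 0.35, 0.16 to 0.54), and within this class at dpi4 it lay at 4.22 and 6.42 CPM in the *Xcr1* and *Clec9a* cluster but at 150 and 280 CPM in the *Ccr7* and *Fscn1* cluster. Macrophage markers summed to 984, 1344, 6418 and 4472 CPM in dendritic cells, which is 7.19%, 8.84%, 15.3% and 12.9% of their level in macrophages. RNA in that proportion would carry 3.94, 22.0, 10.8 and 36.1 CPM of *Gclm*, and its part in the dendritic levels was not tested. In T or NK cells none of 3 and none of 4 measured genes passed, beside 1.77% of 2092 and 1.03% of 3892 genes called higher, and 3.3% and 1.8% called lower. *Gclm* had 12, 9, 12 and 28 UMIs there (25.1, 46.7, 21.7 and 33.8 CPM), and *Slc7a11* had 2, 20, 1 and 1 UMIs. The 20 *Slc7a11* UMIs of KO dpi2 lay in 2 of the 37 cells, and neutrophil markers summed to 1101 CPM in these T or NK cells against 10.9 to 43.9 CPM in the other libraries. *Slc7a11* and the neutrophil markers thus moved together in that class, and their part in it was not tested.

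The share of cells with at least 1 UMI was read after each cell was thinned to 2000 UMIs, since depth differed between classes and libraries. Of macrophages, 10.5% (9.12% to 12.0%) had *Gclm* in control dpi2, 32.0% (29.1% to 34.9%) in KO dpi2, 9.05% (8.03% to 10.2%) in control dpi4 and 32.9% (31.0% to 34.8%) in KO dpi4. Unthinned, the shares were 46.7%, 85.6%, 41.9% and 80.2%, at median depths of 18272.5, 26368, 16210 and 15410 UMIs. For reference, the shares in thinned T or NK cells were 2.97%, 8.11%, 4.05% and 6.20% (10.7%, 16.2%, 12.7% and 18.0% unthinned, at median depths of 3952, 4850, 4962 and 4899 UMIs). These cells can express *Gclm* themselves. *Lyz2*, a myeloid gene, read 865 and 1742 CPM in control T or NK cells and was called lower in KO, at 1 and 0 UMIs, so their share is a reference and not a measured background. At dpi4 the control macrophages overlapped the T or NK share (0.844% to 11.4%), while both KO shares of macrophages lay above the intervals of T or NK cells (1.70% to 21.9%, then 2.72% to 11.9%). The *Gclm* share in T or NK cells had overlapping intervals in all 4 libraries. By the macrophage markers, macrophage RNA would carry 2.80, 11.5, 4.21 and 17.7 CPM of *Gclm* in T or NK cells, against the measured 25.1, 46.7, 21.7 and 33.8 CPM.

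In neutrophils, 6.09% (4.08% to 8.68%) of thinned cells had *Gclm* in control dpi2 and 41.6% (38.0% to 45.2%) in KO dpi2, and 7.63% (3.55% to 14.0%) and 40.6% (23.7% to 59.4%) at dpi4. The unthinned shares were 5.74%, 54.1%, 12.5% and 51.4%, at median depths of 2299, 3420, 2816.5 and 2910 UMIs. The control share of neutrophils lay within the interval of the T or NK share, and the KO share above it. *Slc7a11* was found in 63.5% (58.9% to 67.9%) of control and 93.8% (91.9% to 95.4%) of KO neutrophils at dpi2, and in 59.3% and 78.1% at dpi4 (63.2%, 94.4%, 60.9% and 82.9% unthinned), against 0.990%, 5.41%, 1.35% and 0.775% of T or NK cells. *Srxn1* was in 1.09% of control and 11.1% of KO neutrophils at dpi2 and in 3.39% and 0 of 32 at dpi4 (1.12%, 17.3%, 3.12% and 0 of 35 unthinned), against 2.97%, 2.70%, 2.70% and 0.775% of T or NK cells. In the *Il1f9* cluster 14.7% of control and 82.2% of KO cells had *Gclm* at dpi2 (19.1% and 88.9% unthinned). Thinning left out 167, 55, 10 and 3 neutrophils, 58, 27, 82 and 73 macrophages and 2, 0, 5 and 4 T or NK cells below 2000 UMIs.

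**Figure D4:**
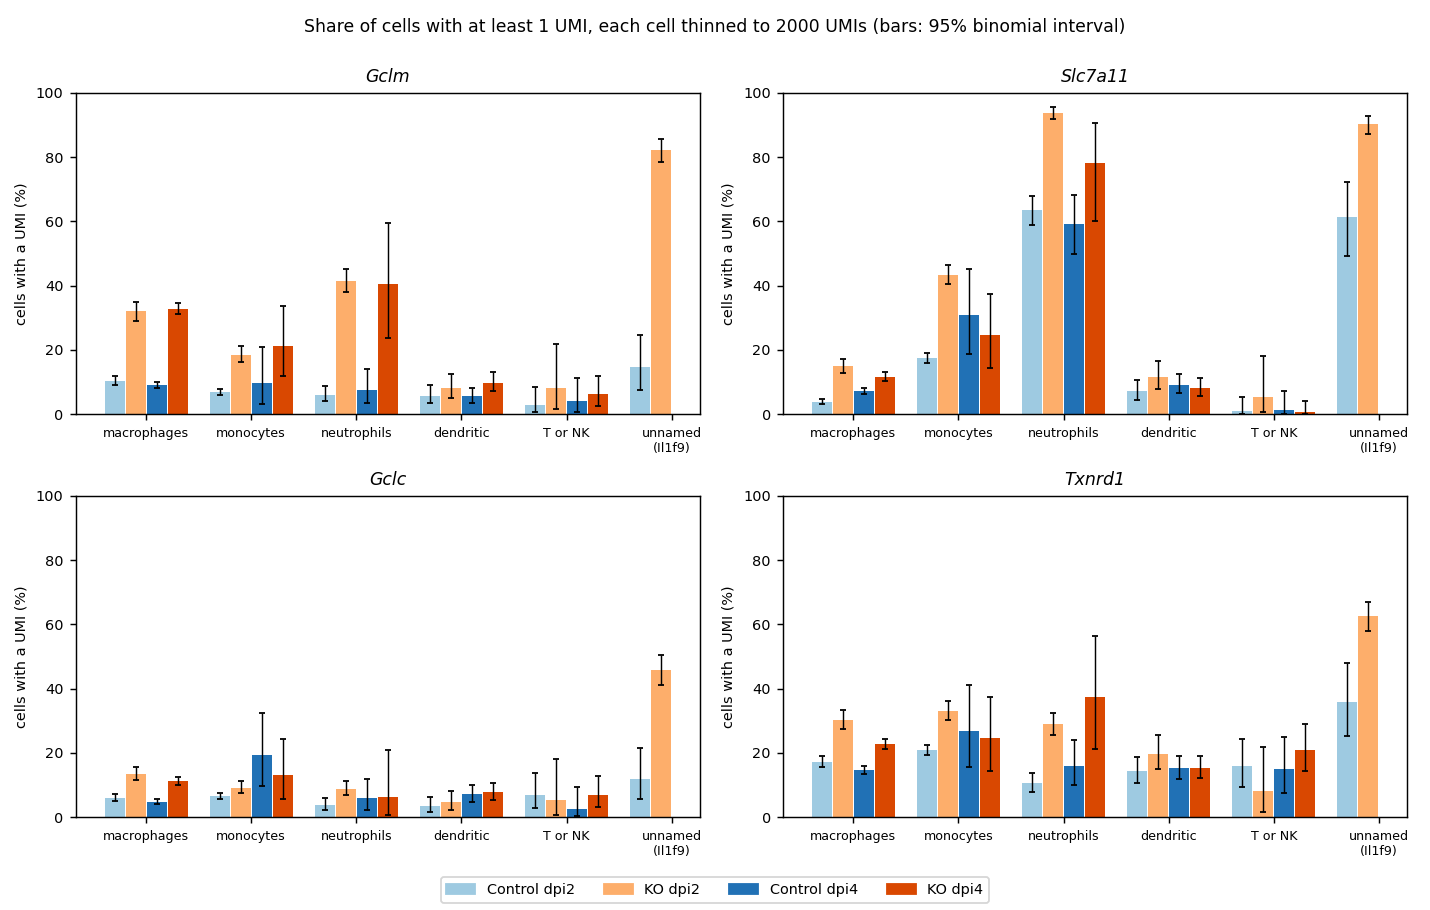
Share of cells with at least 1 UMI of *Gclm*, *Slc7a11*, *Gclc* and *Txnrd1* in percent, by cell class and library, with every cell thinned to 2000 UMIs, where bars start at 0 and whiskers are exact binomial 95% intervals. At dpi2 *Gclm* was in 10.5% of control and 32.0% of KO macrophages, and in 6.09% of control and 41.6% of KO neutrophils.

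The 10 genes were also counted cell by cell. With every cell at 2000 UMIs, the median number of the 10 genes with a UMI was 2 in control and 3 in KO macrophages at dpi2, and 2 in both at dpi4. In neutrophils it was 2 and 4 at dpi2, and 3 and 4 at dpi4. Leaving out the abundant *Prdx1* and *Txn1*, 61.5% of control and 32.9% of KO macrophages had none of the other 8 genes at dpi2, and 65.1% and 36.9% at dpi4. For neutrophils these shares were 11.3% and 0.263% at dpi2. For T or NK cells they were 69.3%, 67.6%, 66.2% and 61.2% in the 4 libraries.

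RNA of neutrophils in other classes was estimated through the summed neutrophil markers, since neutrophils carry much *Slc7a11* and *Gsr*. Such a sum does not tell free RNA from doublets, misplaced cells or own expression. In macrophages these markers summed to 108, 271, 97.1 and 76.0 CPM, which is 0.198%, 0.360%, 0.276% and 0.209% of their level in the neutrophils of the same library. RNA in that proportion would carry 2.53, 13.7, 3.20 and 4.99 CPM of *Slc7a11*, against the measured 21.4, 114, 55.6 and 97.4 CPM. For *Gsr* it would carry 1.42, 4.03, 1.98 and 1.70 CPM, against 27.6, 93.3, 32.4 and 56.1. In monocytes at dpi2 it would carry 5.29 and 22.9 CPM of *Slc7a11*, against 131 and 432. It was a larger part of the level in dendritic cells of KO dpi2, with 23.1 of 108 CPM, and in T or NK cells, with 1.02 of 4.18, 55.8 of 104, 0.358 of 1.81 and 1.03 of 1.21 CPM in the 4 libraries. *Ly6g* was at 0 in macrophages of 3 of the 4 libraries, and 8 or 9 of the 9 markers were detected. The neutrophil class alone served as the source. In KO dpi2 the *Il1f9* cluster had 5197 CPM of *Slc7a11* on 16878 CPM of neutrophil markers, against 3812 on 75229 in neutrophils. RNA from that cluster would carry more *Slc7a11* per marker and was not estimated.

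The levels were also compared from dpi2 to dpi4 by the same rule. Macrophages lay largely in different clusters at the 2 dpi. The *Lyve1* and *Cd163* cluster held 23.5% of control and 29.4% of KO macrophages at dpi2, but 0.237% and 0.312% at dpi4, and the *Cd83* and *Gdf15* cluster held 1.70% and 1.98%, then 34.7% and 12.1%. In control macrophages *Slc7a11* was called higher at dpi4 (log2 ratio 1.37, 1.26 to 1.49), 1 of 10 genes, where 9.73% of 11712 genes were called higher. Within clusters its control level went either way, from 111 CPM (84.1 to 143) at dpi2 to 84.9 (80.7 to 89.4) at dpi4 in the *Cd83* and *Gdf15* cluster, and from 7.28 (4.71 to 10.8) to 36.1 (30.4 to 42.6) in the *Top2a* cluster. In KO macrophages *Nqo1* was called lower (-1.38, -2.09 to -0.70), 1 of 10, on 50 and 30 UMIs, where 4.89% of 11427 genes were. *Srxn1* (-0.82, -0.93 to -0.72) and *Gsr* (-0.74, -0.81 to -0.66) in KO macrophages were lower at dpi4 by less than 2-fold. In monocytes *Gclm* was called higher in control (1.36, 0.99 to 1.70), 1 of 9 genes against 4.72% of 9667. In the same control monocytes macrophage markers summed to 5223 CPM at dpi2 and 14276 at dpi4, and monocyte markers to 12028 and 7771 CPM, and their part in it was not tested. In KO monocytes *Gss* was called higher (1.49, 0.70 to 2.19), on 185 and 18 UMIs, 1 of 9 against 5.61% of 8760.

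In control neutrophils none of 7 measured genes was called over time, against 8.81% higher and 6.74% lower of 4290 genes. *Gclm* and *Slc7a11* there had log2 ratios of 0.68 (-0.25 to 1.55) and -0.14 (-0.29 to 0.01). In KO neutrophils 2 of 8 were called lower at dpi4, against 4.08% of 4732 genes. Their neutrophil markers summed to 75229 CPM at dpi2 and 36405 at dpi4 and their macrophage markers to 593 and 2874 CPM, and the part of either in these calls was not tested. These were *Gclc* (-1.98, -5.04 to -0.11), on 233 and 2 UMIs, and *Srxn1*, with 260 and 0 UMIs. *Gclm* was 380 and 383 CPM in KO neutrophils at dpi2 and dpi4, a log2 ratio of 0.01 (-0.49 to 0.48). In control dendritic cells none of 9 genes was called, against 4.51% higher and 2.95% lower of 8478 genes. In KO dendritic cells *Gsr* was called lower (-1.25, -1.52 to -0.99), 1 of 9 genes against 2.16% of 8661. Neutrophil markers in these KO cells summed to 456 and 86.6 CPM, in proportion to which neutrophil RNA would carry 6.78 of the 81.2 CPM of *Gsr* at dpi2 and 1.94 of the 34.1 CPM at dpi4. Macrophage markers summed to 1344 and 4472 CPM, and their part in the call was not tested. In the *Il1f9* cluster, with 5 and 12 cells at dpi4, *Slc7a11* was called higher in control (1.29, 0.84 to 1.72), 1 of 6 genes against 7.80% of 885. In its KO cells *Slc7a11* (-2.14, -2.61 to -1.70), *Txn1* (-1.59, -2.07 to -1.16) and *Txnrd1* (-1.02, -1.93 to -0.24) were called lower, 3 of 9 against 4.41% of 3627. Neutrophil markers in the cluster moved the same way, from 8994 to 17234 CPM in control and from 16878 to 1125 CPM in KO, and their part in these calls was not tested. In T or NK cells none of 3 measured genes was called in either genotype. Of all genes there, 3.09% were called higher and 2.1% lower in control (of 3102), and 4.4% and 2.18% in KO (of 3025). All comparisons over time share their libraries with those of genotype.

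The other genes of the same systems were read from lists of 39 glutathione and 22 thioredoxin genes. In macrophages, 8 of 31 measured glutathione genes were called higher and 1 lower in KO at dpi2, and 2 higher and 2 lower of 33 at dpi4, with median log2 ratios of 0.23 and -0.01. Of all genes, 2.37% were called higher and 2.05% lower at dpi2, and 0.989% and 1.31% at dpi4. *Mgst2*, a microsomal glutathione transferase, was called higher at both dpi (0.908 and 2.18 CPM at dpi2, log2 ratio 1.27, 0.64 to 1.92, and 2.64 and 5.41 CPM at dpi4, 1.04, 0.73 to 1.34). *Gstp1*, a transferase chosen here after its values were seen, was called higher at dpi2 (4.21 and 10.5 CPM, 1.32, 1.04 to 1.61) and lower at dpi4 (7.69 and 2.77 CPM, -1.47, -1.77 to -1.18). Of the other thioredoxin genes none of 22 was called at either dpi in macrophages, with medians of -0.11 and -0.03. *Slc3a2*, the partner chain of SLC7A11, also named after its values were seen, had a log2 ratio in macrophages of 0.23 (0.19 to 0.28), then 0.08 (0.04 to 0.12), while neutrophils gave 0.80 (0.58 to 1.02) at dpi2.

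In monocytes 1 of 25 other glutathione genes was called at dpi2 and 2 of 10 at dpi4, all higher in KO, where 1.76% and 1.59% of all genes were. *Abcc1*, which exports glutathione conjugates, was among them at both dpi (39.3 and 121 CPM, log2 ratio 1.62, 1.51 to 1.73, then 30.1 and 90.8 CPM, 1.59, 0.76 to 2.49). Of the thioredoxin genes none of 22 was called at dpi2, and 1 of 10 at dpi4 (*Pdia4*, named after its value was seen). In neutrophils at dpi2, 4 of 17 glutathione genes were called higher and 1 lower, and 1 of 13 thioredoxin genes lower, where 2.60% of all genes were called higher and 6.27% lower. The higher ones, named after their values were seen, were *Mgst2*, *Abcc1*, *Gstm1* and the glutaredoxin gene *Glrx*. The lower ones were *Glrx3* and *Prdx2*. None of 4 and none of 5 were called at dpi4. The neutrophil medians at dpi2 were -0.22 and -0.27 for the other glutathione and thioredoxin genes, near the -0.29 of all genes, beside 1.62 for the 10 genes.

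**Figure D5:**
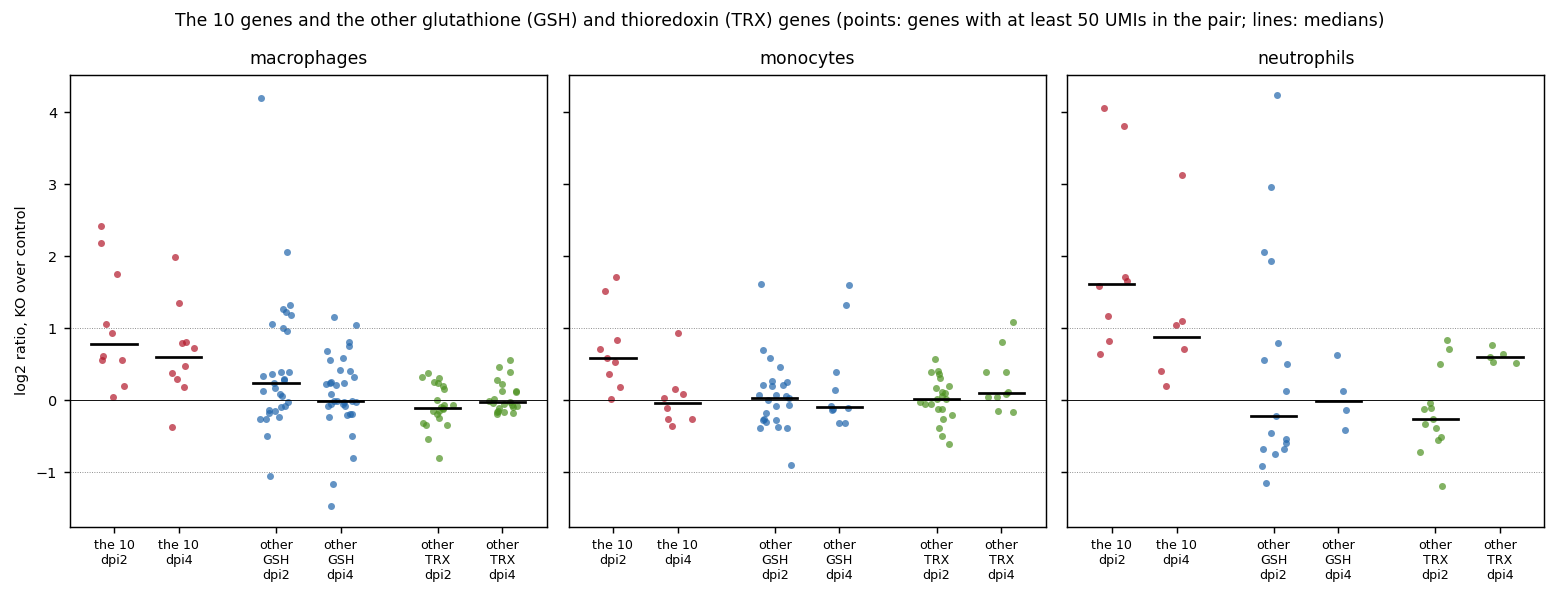
Log2 ratios of KO over control for the 10 genes, the other glutathione genes and the other thioredoxin genes in 3 classes and both dpi, where each point is a gene with at least 50 UMIs in the pair, black lines are medians and dotted lines mark 2-fold. In neutrophils at dpi2 the median was 1.62 for the 10 genes, -0.22 for the other glutathione genes and -0.27 for the other thioredoxin genes.

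Over the 22 sums of a class in a library with at least 50 cells, the genes whose log2(CPM + 1) was most like that of *Gclm* among 10497 genes were *Hmox1* (Pearson r = 0.90), *Slc48a1* (0.90) and *Aldoa* (0.90). *Txnrd1* and *Gclc* were each other's nearest gene (0.91), and *Srxn1* came nearest to *Mafg* (0.88). *Slc7a11* was nearest to *Nlrp3* (0.97) and *Ptgs2* (0.96), and *Gsr* to *Fpr2* (0.95) and *Slc2a1* (0.94). *Prdx1* was nearest to *Plxna1* (0.97), *Txn1* to *Grina* (0.84), *Gss* to *Camk2d* (0.83) and *Nqo1* to *Inf2* (0.77). Among the 10 genes themselves, *Gsr* went with *Slc7a11* (0.81) and *Gclm* with *Gclc* (0.81), while *Gsr* and *Prdx1* had -0.26. The sums of a class share libraries and depth, so these values describe likeness only.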

How the data were processed

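CD45+ leukocytes of cardiotoxin-injured muscle were profiled by 10x 3′ single-cell RNA-seq, 1 library per group. The deposited values are UMI counts per gene and barcode, which the authors made with Cell Ranger 6.1.2 against mm10 (per the labels and methods), with replicates not stated as pooled. The labels and the methods name different kit versions. Barcodes with at least 500 genes and under 10% mitochondrial UMIs were kept, and Scrublet removed 100 to 289 per library at an assumed 0.8% doublets per 1000 cells. Cells were clustered together with scanpy 1.11.5 and leidenalg 0.10.2 (2000 variable genes, 30 components, 15 neighbours, resolution 1), with 75 pathway and check genes kept out of the variable genes. Clusters were named from 85 markers, of which 82 matched, so class names are rebuilt and not those of the study. The leading genes of 1 macrophage cluster are not reported here, and it is not drawn. The study's own test over cells was not used, because cells are not replicates.

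UMIs were summed by class and library (CPM, exact Poisson intervals), and ratios have exact conditional binomial intervals (scipy 1.17.1). Shares used cells thinned to 2000 UMIs. The size rule was tested on counts simulated with counting error only, so that test does not cover differences between animals or libraries. The text names all 10 genes, *Bach1*, *Lyz2* and *Hmox1* as checks, other pathway genes past the rule in 1 direction at both dpi (*Mgst2* and *Abcc1*), and the genes most like each member. Further pathway genes were named after their values were seen. The members and lists were chosen with earlier results of these data known. Alternatives covered TMM factors (edgeR), UMI minima, fold size, resolution, class by marker score, pooled classes, mitochondrial and gene limits, doublets and clustering each library by itself. Promoters are RefSeq's, positions GENCODE's.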

Additional observations from a re-analysis of the deposited data

Results flagged for a closer look

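Among the 10 genes, the intervals lay on opposite sides of 0 at the 2 dpi in 5 cases, 2 of them in a whole class or the unnamed cluster and 3 within a single cluster of a class. *Prdx1* in monocytes had a log2 ratio of KO over control of 0.19 (0.16 to 0.21) on dpi2, but of -0.27 (-0.40 to -0.13) on dpi4. The dpi4 value rests on 52 and 62 cells, in which macrophage markers summed to 14276 CPM (control) and 8870 CPM (KO), against 5223 and 5597 CPM on dpi2. *Slc7a11* in the unnamed cluster led by *Il1f9* had 1.83 (1.69 to 1.99) on dpi2, but -1.60 (-2.22 to -0.98) on dpi4, where it rests on 5 control and 12 KO cells. Neutrophil markers in that cluster summed to 8994 CPM (control) and 16878 CPM (KO) on dpi2, and to 17234 and 1125 CPM on dpi4. *Srxn1* in 1 macrophage cluster had 0.55 (0.41 to 0.68), then -0.54 (-0.997 to -0.085), the latter on 79 control and 84 KO cells. In the dendritic cell cluster led by *Cd209a*, *Txnrd1* had 0.35 (0.12 to 0.58), then -0.19 (-0.37 to -0.0082), and *Txn1* had -0.16 (-0.28 to -0.036), then 0.31 (0.19 to 0.44). The intervals cover counting error only, and no difference between the dpi was tested.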

How the results depend on the processing

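No paired analysis was possible because each group is 1 library, and no library could be left out for the same reason. Of 70 recomputed counts of the 10 genes called, 59 stayed within 1.5 times the reported count. In macrophages, pooling monocytes and macrophages gave 2 in place of 4 at dpi2, and a 1.5-fold rule gave 5 in place of 2 at dpi4. In monocytes a 1.5-fold rule gave 4 in place of 2 at dpi2. In monocytes at dpi4 the count of 0 became 1 with no minimum of UMIs, 1 with a 1.5-fold rule, 1 with each library clustered by itself, 2 by marker score and 2 pooled. The pool then held 2955 control and 2564 KO macrophages beside 52 and 62 monocytes, so it bears on macrophages and not on monocytes. With each library clustered by itself, the monocyte class at dpi4 held 483 control and 722 KO cells, a larger and different set. In neutrophils at dpi4 the count of 3 became 1 with at least 200 UMIs, 1 by marker score and 1 with at least 200 genes per cell. Of 554 log2 ratios and medians, 414 stayed within their interval, 136 moved and 4 changed sign: *Txn1* in macrophages at dpi2, at -0.025 with the mean of per-cell CPM and -0.075 by marker score, and in monocytes at dpi4, in the same pool, *Txn1* at 0.37 and *Prdx1* at 0.46. Of 240 shares, 65 stayed within their interval and 175 moved. The cause was not tested. Genes under 50 UMIs in a pair, among them *Nqo1* in the named classes other than macrophages, *Gss* in neutrophils and most genes in T or NK cells, are limited by depth.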
